A study of Mus musculus with 12 samples.

Results

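Expression of the insulin-like growth factor (IGF) system was examined in mouse bone marrow mesenchymal stem cells (MSCs), multipotent stromal cells that can differentiate into matrix-producing myofibroblasts. The set comprised 10 genes, taken by symbol from the 55401 genes of the deposited expression table: the ligands Igf1 and Igf2, the receptors Igf1r and Igf2r, and the binding proteins Igfbp2, Igfbp3, Igfbp4, Igfbp5, Igfbp6 and Igfbp7. Messenger RNA was sequenced in 12 libraries of commercially obtained C57BL/6 MSCs, 3 for each of 4 groups. MSCs were left untreated, were treated with the profibrotic cytokine TGF-β1 at 5 ng/mL for 24 h, or received TGF-β1 at that dose and time together with the supernatant of sorted myeloid-derived suppressor cells (MDSCs), immature myeloid cells that suppress immune responses. The supernatant came from either the monocytic subset (TGF-β1/M-MDSC supernatant) or the granulocytic subset (TGF-β1/G-MDSC supernatant), both grown from mouse bone marrow, and neither supernatant was given without TGF-β1. The libraries held 73977669 to 84565450 counts. The labels do not say whether the 3 libraries of a group came from separate cultures, so the p-values measure the spread between libraries, which may be technical.

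IGF1 and IGF2 are secreted peptides that signal through the IGF1 receptor, a tyrosine kinase that acts through insulin receptor substrates and the PI3K and AKT kinases. The IGF2 receptor, which is also the cation-independent mannose 6-phosphate receptor, takes up IGF2 for degradation and sorts lysosomal enzymes. IGF-binding proteins hold the ligands outside the cell and differ in affinity, with IGFBP6 preferring IGF2 and IGFBP7 binding IGFs only weakly. Proteases such as pregnancy-associated plasma protein A (Pappa) cleave binding proteins and free the ligand.

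The cells carried MSC transcripts in all groups. The summed level of 8 MSC markers was between 500.2 and 598 FPKM (fragments scaled for gene length and for the depth of the library). However, Eng was below FPKM 1 in every library. Nt5e was at FPKM 0.321 to 0.505 in untreated MSCs and at 0.958 to 1.06 with TGF-β1. Members of that list went opposite ways, since Ly6a, which encodes the Sca-1 antigen, was at FPKM 245 ± 5.35 (SD, n = 3) in untreated MSCs, 16.2 ± 2.92 with TGF-β1, and 92.5 ± 10.1 and 66.9 ± 3.20 in the M-MDSC and G-MDSC supernatant groups. Pdgfra went from 14.0 ± 1.34 to 4.95 ± 0.374 with TGF-β1 while Itgb1 went from 254 ± 8.61 to 385 ± 3.98. Several libraries also carried transcripts of other tissues. The 7 liver markers (Alb, Apoa1, Apoa2, Ttr, Serpina1a, Fgb and Ahsg) were at 0 in all untreated and TGF-β1 libraries, summed to FPKM 67.3 to 72.9 in the 3 TGF-β1/G-MDSC supernatant libraries, and were at FPKM 0.076, 0.176 and 61.3 in TGF-β1/M-MDSC supernatant replicates 1, 2 and 3. The 7 kidney markers other than Aqp1, which the untreated MSCs themselves expressed, summed to at most FPKM 0.140 without supernatant, to 43.3 to 57.2 in TGF-β1/G-MDSC libraries and to 12.3 to 78.6 in TGF-β1/M-MDSC libraries. The 10 myeloid markers summed to FPKM 26.9 to 27.9 in untreated MSCs, 13.6 to 15.8 with TGF-β1, 20.5 to 25.9 in TGF-β1/M-MDSC libraries and 25.8 to 29.3 in TGF-β1/G-MDSC libraries, mostly from Cd14. They did not move together. Adgre1 and S100a9 were at 0 in every library without supernatant, and with supernatant Adgre1 had at most 8 counts and S100a9 between 0 and 160. Ly6g and Ly6c2 were highest in untreated MSCs, at a mean FPKM of 1.83 and 1.71, against 0.068 and 0.045 with TGF-β1, 0.062 and 0.148 in the M-MDSC group and 0.125 and 0.211 in the G-MDSC group. Lyz2 reached FPKM 1.56 to 2.11 with G-MDSC supernatant and 0.651 to 2.29 with M-MDSC supernatant, against at most 0.191 without. Fold changes, shares and count ratios of members that involve TGF-β1/M-MDSC supernatant are therefore also given without its replicate 3. Shares set against the G-MDSC group are the exception. However, M-MDSC replicates 1 and 2 also held kidney markers, at FPKM 15.7 and 12.3. No library of either supernatant group was free of these transcripts.

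Levels differed widely within the family. In untreated MSCs Igfbp6 (FPKM 266 ± 7.62, SD, n = 3) and Igfbp7 (FPKM 259 ± 18.5) stood highest, without a difference beyond their spread, followed by Igfbp4 (77.0 ± 27.0), Igf2r (15.8 ± 1.83), Igf1r (6.81 ± 0.459) and Igf1 (1.06 ± 0.060). Igfbp3 (0.687 ± 0.080) and Igfbp2 (0.211 ± 0.127) were lower still, and Igfbp5 and Igf2 were near 0. The test was run on the 12016 genes that reached FPKM 1 in 3 or more libraries. Of the 10 members, 6 passed (Igf1, Igf1r, Igf2r, Igfbp4, Igfbp6 and Igfbp7) and 4 did not (Igf2, Igfbp2, Igfbp3 and Igfbp5). Igf1 passed only through the untreated group, where all 3 libraries were above FPKM 1, so that it could pass only if it was highest there and its difference from that group is in part set by the filter.

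**Figure D1:**
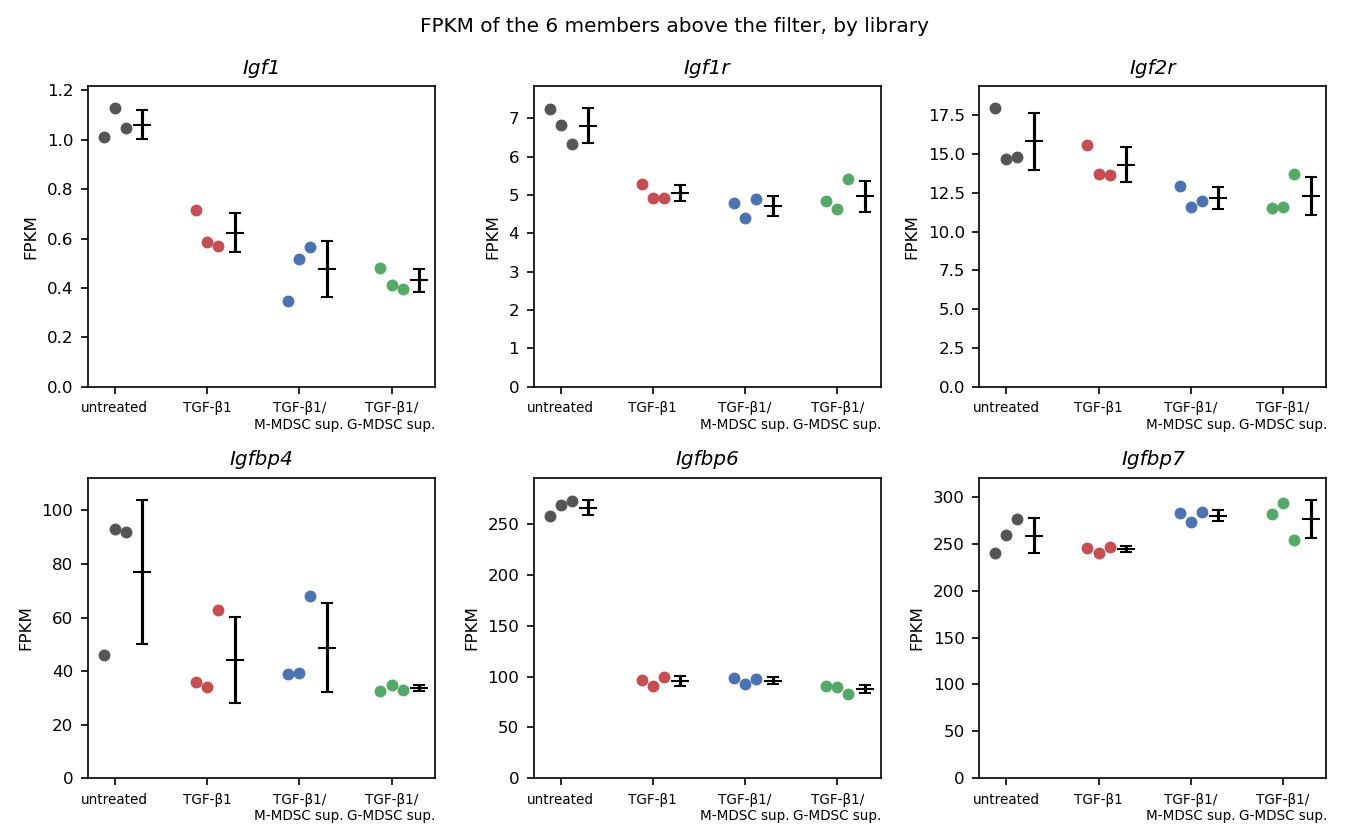
FPKM (y axis, from 0) of Igf1, Igf1r, Igf2r, Igfbp4, Igfbp6 and Igfbp7 in each of the 12 libraries, by group, with points for libraries and the mean ± SD (n = 3) beside them. The 3 untreated libraries sit above the other 9 for Igf1, Igf1r and Igfbp6, Igfbp4 splits within 3 of the groups, and Igfbp7 stays between FPKM 240 and 294.

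TGF-β1 lowered 3 of the 6 tested members, Igfbp6, Igf1 and Igf1r, and raised none. At an adjusted p under 0.05, edgeR called 34% of all genes tested in this comparison and 17.9% as lower, and the member count is to be read against that share. The members were chosen with earlier results of these data known, so the count is a description and not a test of the set. The median log2 fold change of the 6 members was -0.54, against 0.00048 over all genes tested. Without Igf1, which passed the filter only through the untreated group, 2 of 5 members were lower and the median was -0.37, where 17% of the genes that reached FPKM 1 in some treated library were called lower. In bulk RNA, fewer cells of a type and less RNA per cell cannot be told apart.

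Among the ligands, Igf1, the main circulating and local growth-promoting IGF, was at FPKM 1.01, 1.13 and 1.05 in the untreated libraries and at 0.714, 0.588 and 0.572 with TGF-β1. All 3 TGF-β1 libraries lay below all 3 untreated libraries. The log2 fold change was -0.71 ± 0.167 (SE) with an adjusted p of 0.00718 (edgeR, two-sided, Benjamini-Hochberg over all genes tested). Igf2, the imprinted fetal growth factor, had between 0 and 5 counts in each of the 12 libraries, and no difference could be detected at this depth. The annotated gene Gm49394, which overlaps Igf2 on the same strand, had 0 to 59 counts.

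Among the receptors, Igf1r, the signalling receptor, was at FPKM 7.25, 6.84 and 6.33 in untreated MSCs and at 5.29, 4.93 and 4.92 with TGF-β1. The groups did not overlap, and Igf1r fell by 0.37 ± 0.0715 on the log2 scale (edgeR adjusted p = 0.00207). Igf2r, the clearance receptor, was at FPKM 17.9, 14.7 and 14.8 in untreated MSCs and at 15.6, 13.7 and 13.7 with TGF-β1. These groups overlapped, with a log2 fold change of -0.09 ± 0.0967 (edgeR adjusted p = 0.547). The antisense transcript Airn lies across part of Igf2r on the other strand and had 41 to 140 counts, against at least 8877 for Igf2r.

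Among the binding proteins, Igfbp6 had the widest change. It was at FPKM 258, 269 and 272 in untreated MSCs and at 96.4, 90.5 and 99.8 with TGF-β1. Every TGF-β1 library was below FPKM 100 and every untreated library above 257. The log2 fold change was -1.42 ± 0.0496 (edgeR adjusted p = 6.78e-09), which left 0.373 of the untreated level, and it ranged from -1.48 to -1.39 over all alternatives tried.

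Igfbp7, a secreted protein of the vascular matrix, was the other abundant binding protein and did not follow Igfbp6. Its levels were FPKM 240, 259 and 277 in untreated MSCs and 245, 240.3 and 247 with TGF-β1. The TGF-β1 libraries lay within the untreated range, with a log2 fold change of -0.02 ± 0.0589 (edgeR adjusted p = 0.790). Igfbp7 shares 85 bases with Polr2b on the other strand, which was itself at FPKM 30.6 to 32.2.

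Igfbp4, an inhibitory binding protein cleaved by Pappa, varied within the groups. It was at FPKM 45.9, 93.1 and 92.0 in untreated MSCs and at 35.8, 33.9 and 62.7 with TGF-β1. Untreated replicate 1 lay below TGF-β1 replicate 3, so the groups overlapped. The log2 fold change of -0.75 ± 0.321 did not pass the test (edgeR adjusted p = 0.103), but it did without untreated replicate 1 (-1.02, adjusted p = 0.0226) or without TGF-β1 replicate 3 (-1.10, adjusted p = 0.0285).

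**Figure D2:**
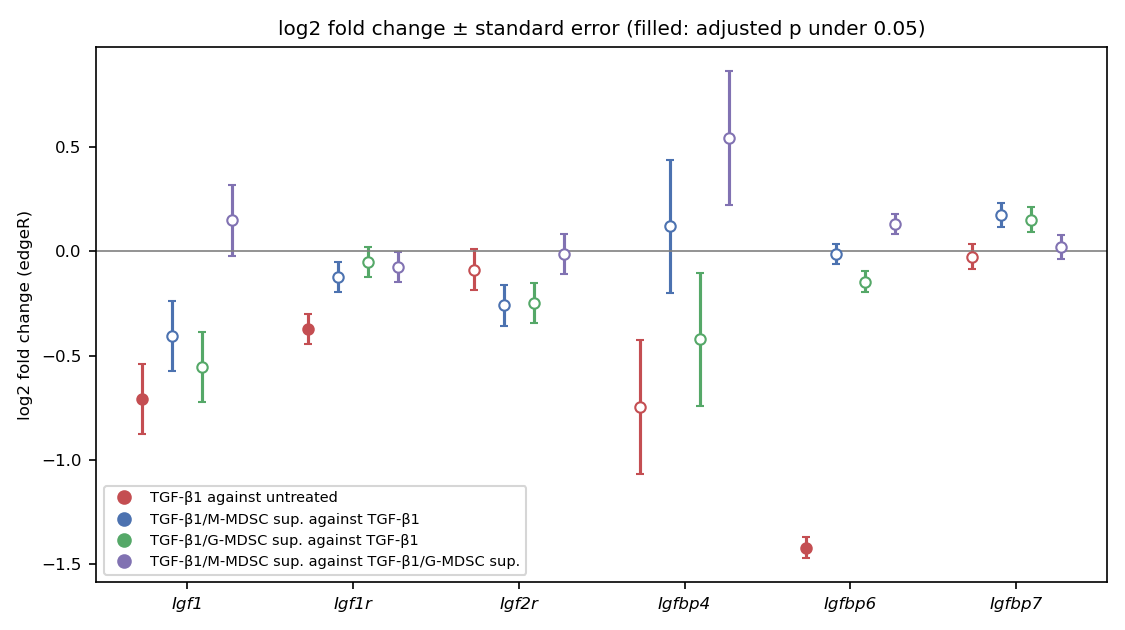
log2 fold change (edgeR, y axis) of the 6 tested members in 4 comparisons, with bars for the standard error and filled points for an adjusted p under 0.05. Filled points appear for Igf1, Igf1r and Igfbp6 in TGF-β1 against untreated, and all points of the comparisons between the TGF-β1-treated groups are open.

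The split of Igfbp4 was unusual among genes with a mean FPKM of at least 10, which is a floor and not a match for its level. The highest library of a group was 2.03 times the lowest in untreated MSCs, 1.85 times with TGF-β1, 1.74 times with TGF-β1/M-MDSC supernatant and 1.06 times with TGF-β1/G-MDSC supernatant. Of 4499 genes with a mean FPKM of at least 10, 2.62%, 3.09%, 3.71% and 71.5% had a ratio as large in the same groups. The libraries fell into a lower range of FPKM 32.8 to 45.9 and a higher range of 62.7 to 93.1, and the higher range held untreated replicates 2 and 3 and replicate 3 of both the TGF-β1 and the TGF-β1/M-MDSC supernatant groups. Liver markers were at 0 in 3 of the 4 higher libraries and summed to FPKM 61.3 in M-MDSC supernatant replicate 3. M-MDSC supernatant replicates 1 and 2, with liver markers at FPKM 0.076 and 0.176, were in the lower range. So were the 3 TGF-β1/G-MDSC supernatant libraries, in which liver markers summed to FPKM 67.3 to 72.9. The cause of the split was not tested.

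The makeup of the binding protein transcripts shifted with TGF-β1. The 6 binding protein members summed to FPKM 603 ± 51.5 in untreated MSCs and 385 ± 23.0 with TGF-β1. Of that sum, Igfbp6 took 44.3 ± 2.64% without and 24.9 ± 0.569% with TGF-β1, while Igfbp7 took 42.9 ± 1.19% and 63.6 ± 2.99%. Both shares separated the groups in every library, with a two-sided exact permutation p of 0.1 each, which is the smallest that 3 against 3 libraries allow (16 such tests of the sum and shares were run over the comparisons, with a lowest Benjamini-Hochberg adjusted p of 0.178). Igfbp2, Igfbp3 and Igfbp5 together made up at most 0.420% in any library.

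**Figure D3:**
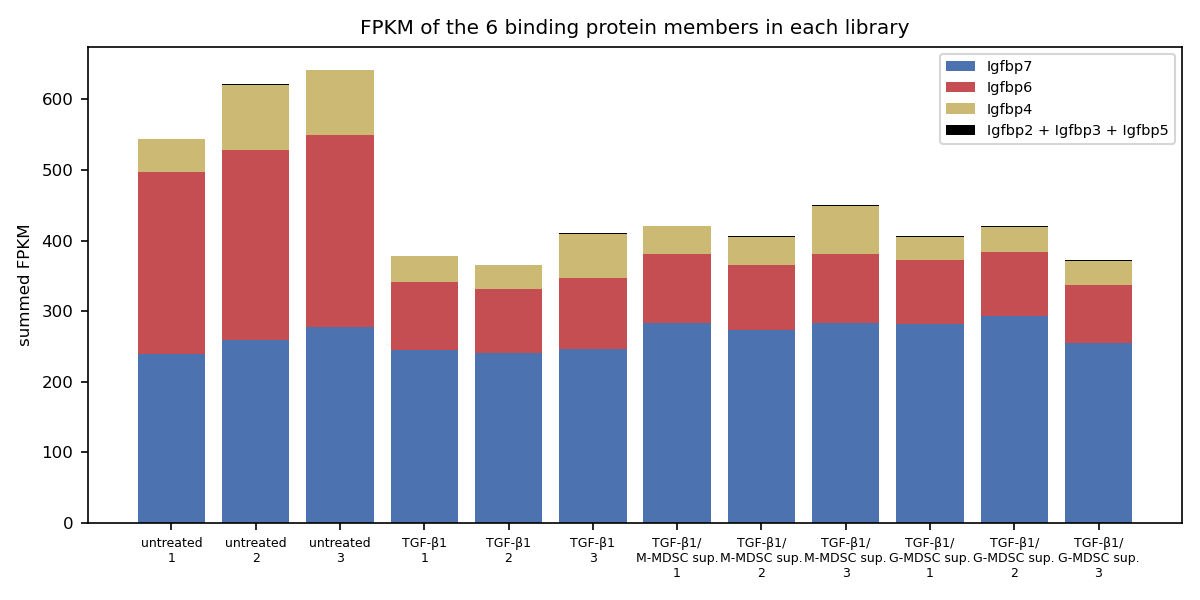
Summed FPKM of the 6 binding protein members in each of the 12 libraries (y axis, stacked by gene, 1 bar per library). Igfbp6 shrinks from 42.4 to 47.4% of the bar in the untreated libraries to 21.5 to 25.5% in the other 9, whereas the Igfbp7 segment keeps about the same height.

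The upstream sequences of the 3 genes that fell with TGF-β1, and of Igfbp7 as an abundant member that did not pass the test, are shown because Smad proteins, the transcription factors of the TGF-β pathway, bind the short motif CAGAC, which was searched for on both strands. Each holds the 250 bases before the RefSeq start of the gene on its own strand (GRCm38), 5′ to 3′, with the motif or its reverse complement in capitals. The RefSeq start need not be the one used in these cells.
Igfbp6 (chr15:102143936-102144185, plus strand): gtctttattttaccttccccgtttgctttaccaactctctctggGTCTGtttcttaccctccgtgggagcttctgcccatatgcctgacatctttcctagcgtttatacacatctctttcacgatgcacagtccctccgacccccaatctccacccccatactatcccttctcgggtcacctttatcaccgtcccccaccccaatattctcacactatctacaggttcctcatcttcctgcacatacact
Igf1 (chr10:87860861-87861110, plus strand): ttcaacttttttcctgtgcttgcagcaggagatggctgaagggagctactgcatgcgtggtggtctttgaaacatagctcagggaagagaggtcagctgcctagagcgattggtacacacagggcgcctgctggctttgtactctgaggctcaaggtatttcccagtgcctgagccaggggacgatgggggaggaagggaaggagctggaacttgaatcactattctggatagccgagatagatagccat
Igf1r (chr7:67952007-67952256, plus strand): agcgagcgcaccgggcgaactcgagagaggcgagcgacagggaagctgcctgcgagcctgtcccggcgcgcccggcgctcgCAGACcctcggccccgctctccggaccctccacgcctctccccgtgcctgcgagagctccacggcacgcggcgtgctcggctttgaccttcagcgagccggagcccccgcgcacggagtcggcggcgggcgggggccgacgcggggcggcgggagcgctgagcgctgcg
Igfbp7 (chr5:77408046-77408295, minus strand): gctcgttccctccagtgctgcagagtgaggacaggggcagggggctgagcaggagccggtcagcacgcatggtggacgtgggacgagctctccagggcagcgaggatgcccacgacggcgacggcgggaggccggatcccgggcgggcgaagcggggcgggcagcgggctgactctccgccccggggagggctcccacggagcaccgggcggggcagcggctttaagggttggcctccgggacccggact
Igfbp6 and Igf1r held the motif once each, and Igf1 and Igfbp7 did not hold it in this window. Of the other tested members that did not pass with TGF-β1, Igf2r held it 2 times and Igfbp4 did not. Of 32851 promoters of the same length, 42.2% held it, and a match is a description of the sequence and not a bound site. The windows also differed in base composition, with G and C making up 49.6% for Igfbp6, 52.8% for Igf1, 77.6% for Igf1r and 74% for Igfbp7, against a median of 52.4% over all promoters.

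With MDSC supernatant added to TGF-β1, none of the 6 tested members passed the test against TGF-β1 alone in edgeR. With M-MDSC supernatant, edgeR called 0 members, against 4.78% of all genes tested, and 3 members (Igf1, Igf2r and Igfbp7) had an unadjusted p under 0.05, as did 16.7% of all genes. With G-MDSC supernatant it likewise called 0 members, against 5.56% of all genes, and 4 members (Igf1, Igf2r, Igfbp6 and Igfbp7) had an unadjusted p under 0.05, as did 17.2% of all genes. DESeq2 called 1 member with G-MDSC supernatant, Igf1, against 8.24% of all genes, and 0 with M-MDSC supernatant, against 6.91%. Both comparisons use the same TGF-β1 libraries and are not independent.

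Igf1 was at FPKM 0.349, 0.519 and 0.565 with M-MDSC supernatant and at 0.482, 0.413 and 0.397 with G-MDSC supernatant, all below the 0.572 of the lowest TGF-β1 library. Its log2 fold change against TGF-β1 was -0.41 ± 0.168 with M-MDSC supernatant (edgeR adjusted p = 0.248) and -0.55 ± 0.168 with G-MDSC supernatant (edgeR adjusted p = 0.0963). With DESeq2 the latter was -0.54 with an adjusted p of 0.0393, and over the other alternatives it ran from -0.64 to -0.18, the latter in limma on log2(FPKM + 1), without passing. With M-MDSC supernatant replicate 3 left out, the former became -0.54 (adjusted p = 0.175).

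Igfbp7 was at FPKM 283, 273 and 284 with M-MDSC supernatant and at 282, 294 and 254 with G-MDSC supernatant. All 6 libraries lay above the 3 TGF-β1 libraries, whose highest was 247. The log2 fold changes of 0.17 ± 0.0589 with M-MDSC supernatant (adjusted p = 0.153) and 0.15 ± 0.0589 with G-MDSC supernatant (adjusted p = 0.199) did not pass in edgeR. When the M-MDSC supernatant and TGF-β1 groups alone entered the fit, the former was 0.19 with an adjusted p of 0.0437, and leaving out M-MDSC supernatant replicate 3 gave 0.17 (adjusted p = 0.313).

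Igf2r was at FPKM 13.0, 11.6 and 11.9 with M-MDSC supernatant, all below the 3 TGF-β1 libraries, and at 11.5, 11.6 and 13.7 with G-MDSC supernatant, where replicate 3 overlapped them. The log2 fold changes of -0.26 and -0.25 had edgeR adjusted p-values of 0.198 and 0.211, and the former was -0.24 (0.380) without M-MDSC supernatant replicate 3. Igfbp6 was at FPKM 98.3, 92.5 and 97.7 with M-MDSC supernatant, within the range of TGF-β1 alone, and at 90.5, 90.3 and 83.3 with G-MDSC supernatant, of which the highest was equal to the lowest TGF-β1 library to 3 digits. Its log2 fold changes were -0.01 and -0.14 (edgeR adjusted p = 0.939 and 0.138), and the former was -0.02 (0.928) without replicate 3. Igf1r, at FPKM 4.41 to 4.90 and 4.64 to 5.42 in the supernatant groups, differed from TGF-β1 by -0.12 and -0.05 on the log2 scale (edgeR adjusted p = 0.432 and 0.818), the former being -0.15 (0.460) without replicate 3.

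Igfbp4 was at FPKM 39.0, 39.4 and 68.0 with M-MDSC supernatant and at 32.8, 34.8 and 33.1 with G-MDSC supernatant. All G-MDSC supernatant libraries were in its lower range, and the M-MDSC supernatant group held the split again. The log2 fold changes against TGF-β1 were 0.12 ± 0.320 and -0.42 ± 0.320 (edgeR adjusted p = 0.903 and 0.588), and leaving out M-MDSC supernatant replicate 3 turned the former to -0.19 (adjusted p = 0.865). Between the supernatants edgeR called 0 of the 6 members, against 0.125% of all genes tested, with the lowest unadjusted p for Igfbp6 (0.0219, log2 fold change 0.13 ± 0.0487 for M-MDSC against G-MDSC), the only member under 0.05, against 6.33% of all genes. DESeq2 also called 0 members, against 1.01% of genes. Without M-MDSC supernatant replicate 3 the adjusted p-values between the supernatants were 0.873 for Igfbp6 (log2 fold change 0.12) and higher for the other 5.

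FPKM did not overlap between the groups for 4 members in the M-MDSC and 3 in the G-MDSC supernatant group against TGF-β1, as for 24% and 22.7% of all genes tested. Between the supernatants this held for 2 members and 12% of genes, and for TGF-β1 against untreated for 3 members and 46.7% of genes. Against untreated it held for 4 members with M-MDSC supernatant (47.4% of genes) and 5 with G-MDSC supernatant (46% of genes).

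Against untreated MSCs, all members that passed were lower, as with TGF-β1 alone, and these comparisons share the untreated libraries. With TGF-β1/M-MDSC supernatant 4 members were lower (18.9% of all genes tested were called lower and 35.2% either way), namely Igf1 at -1.11 ± 0.169 on the log2 scale, Igf1r at -0.50 ± 0.0716, Igf2r at -0.35 ± 0.0968 and Igfbp6 at -1.43 ± 0.0496. With TGF-β1/G-MDSC supernatant 5 were lower (18.4% of all genes were called lower and 34.8% either way), namely Igf1 at -1.26 ± 0.169, Igf1r at -0.42 ± 0.0716, Igf2r at -0.33 ± 0.0968, Igfbp4 at -1.17 ± 0.324 and Igfbp6 at -1.57 ± 0.0498. The edgeR adjusted p-values of Igf1, Igf1r and Igfbp6 were at most 0.000904 in both comparisons. Without M-MDSC supernatant replicate 3 the M-MDSC values were -1.25 for Igf1, -0.53 for Igf1r and -1.44 for Igfbp6 (edgeR adjusted p = 0.000534, 0.000946 and 1.37e-07). By the fold rule of the study, which needs a fold change above 2 or below 0.5, Igfbp6 was called with TGF-β1 (1 member, against 6.74% of all genes), Igf1 and Igfbp6 with M-MDSC supernatant (2 members, 6.98%) and Igf1, Igfbp4 and Igfbp6 with G-MDSC supernatant (3 members, 6.8%). Without Igf1, which passed the filter only through the untreated group, 3 of 5 members were lower in the M-MDSC group and 4 of 5 in the G-MDSC group, against 17.9% and 17.5% of the genes that reached FPKM 1 in some treated library. The fold rule then called 1 and 2 members, against 6.16% and 6.02%.

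The Igf2r and Igfbp4 calls rested on single libraries. Igf2r lost its call with M-MDSC supernatant without untreated replicate 1 (-0.25, adjusted p = 0.0564), without M-MDSC supernatant replicate 2 (-0.31, 0.0635) or without replicate 3 (-0.33, 0.0539). With G-MDSC supernatant the call was lost without untreated replicate 1 (-0.24, edgeR adjusted p = 0.0695), G-MDSC supernatant replicate 1 (-0.29, 0.0780) or replicate 2 (-0.29, 0.0746). Igfbp4 with G-MDSC supernatant lost its call without untreated replicate 2 (-0.998, 0.0630), untreated replicate 3 (-1.02, 0.0577) or G-MDSC supernatant replicate 1 (-1.15, 0.0521). With M-MDSC supernatant, Igfbp4 was not called (-0.62 ± 0.321, edgeR adjusted p = 0.165) but was without untreated replicate 1 (-0.89, 0.0405), and was at -0.94 (0.0572) without M-MDSC supernatant replicate 3. Igfbp7, at 0.15 and 0.13 against untreated (edgeR adjusted p = 0.0740 and 0.122), was called higher in both comparisons without untreated replicate 3 (0.20 and 0.18, adjusted p = 0.0305 and 0.0485), and with G-MDSC supernatant without its replicate 3 (0.18, 0.0285). Without M-MDSC supernatant replicate 3, Igfbp7 in the M-MDSC group was at 0.14 against untreated (edgeR adjusted p = 0.160).

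The shares of the binding proteins in the supernatant groups were compared with TGF-β1 alone. Igfbp6 took 22.6 ± 0.868% in the M-MDSC group and 22.04 ± 0.498% in the G-MDSC group, and every supernatant library lay below the 24.3% of the lowest TGF-β1 library (two-sided exact permutation p = 0.1 for each, the smallest possible). The Igfbp7 share was 65.8 ± 2.48% and 69.2 ± 0.732%, and all G-MDSC libraries lay above all TGF-β1 libraries, of which the highest was at 65.8% (exact permutation p = 0.1). In the M-MDSC group replicates 1 and 2 lay above them too, at 67.2% and 67.3%, and replicate 3 was at 62.9% (exact permutation p = 0.5). Without replicate 3 the M-MDSC means were 67.2% for Igfbp7 and 23.1% for Igfbp6, each with an exact permutation p of 0.2, the smallest that 2 against 3 libraries allow. The Igfbp4 share was 8.06 to 8.89% in the G-MDSC libraries, below all TGF-β1 (9.28 to 15.3%) and all M-MDSC libraries (9.27 to 15.1%), with an exact permutation p of 0.1 for each. In the M-MDSC group it overlapped TGF-β1 (exact permutation p = 1.0, and 0.8 without replicate 3).

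Of the 4 members below the filter, Igfbp5 had more counts in all 6 supernatant libraries than in the other 6, and Igfbp2 in the 3 G-MDSC supernatant libraries and 1 of the M-MDSC supernatant libraries, replicate 3. Igfbp5, a matrix-bound binding protein, had 0, 0 and 10 counts in untreated MSCs, 0, 0 and 4 with TGF-β1, 12, 41 and 56 with M-MDSC supernatant and 53, 36 and 53 with G-MDSC supernatant. Its level was at most FPKM 0.106. The ratio of summed counts, scaled for depth, was 29.2 (95% counting interval 11.1 to 109) with M-MDSC supernatant and 35.3 (13.5 to 131) with G-MDSC supernatant against TGF-β1, and the former was 21.6 (7.97 to 82.3) without M-MDSC supernatant replicate 3. These intervals cover counting error only and take each count as an independent read, although low counts pile up at multiples of 4. They leave out the spread between libraries and are too narrow for a difference between groups. On average over tested genes, those with few counts left out, the variance between libraries of a group was 62.2 to 85.8 times the counting variance.

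Igfbp2, a binding protein made by liver and many fetal tissues, had 46, 12 and 48 counts in untreated MSCs and 20, 25 and 8 with TGF-β1. It had 14, 38 and 110 counts with M-MDSC supernatant and 120, 120 and 78 with G-MDSC supernatant. The G-MDSC libraries lay above all untreated and TGF-β1 libraries, whereas M-MDSC supernatant replicates 1 and 2 lay within the untreated range and replicate 3 above it. The ratio of summed counts against TGF-β1 was 3.28 (counting interval 2.39 to 4.55) with M-MDSC supernatant and 5.97 (4.45 to 8.14) with G-MDSC supernatant. Without M-MDSC supernatant replicate 3 the former was 1.60 (1.07 to 2.39). These intervals too leave out the spread between libraries. The edgeR fit of all genes with a count takes it in, and gave a log2 fold change of 0.67 ± 0.674 for that last contrast.

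Neither passed when all 28622 genes with a count were tested. In that edgeR fit the log2 fold changes against TGF-β1 were 4.71 ± 1.41 (adjusted p = 0.172) and 4.99 ± 1.41 (0.123) for Igfbp5 and 1.67 ± 0.728 (0.434) and 2.55 ± 0.738 (0.134) for Igfbp2, the M-MDSC value first. Without M-MDSC supernatant replicate 3, an alternative chosen after seeing the data, the M-MDSC values were 4.30 (0.362) for Igfbp5 and 0.67 (0.802) for Igfbp2. At an adjusted p under 0.05 it called 2.1% and 2.58% of genes in these comparisons. Igfbp3, the main carrier of IGFs in blood, was at FPKM 0.555 to 0.612 with TGF-β1, 0.619 to 0.798 with M-MDSC supernatant and 0.673 to 0.964 with G-MDSC supernatant, above all TGF-β1 libraries in both, and did not pass (log2 fold change 0.30 and 0.49, edgeR adjusted p = 0.590 and 0.264, the former 0.26 and 0.737 without M-MDSC supernatant replicate 3). Against untreated MSCs, TGF-β1 alone gave Igfbp3 a log2 fold change of -0.17 (edgeR adjusted p = 0.649).

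**Figure D4:**
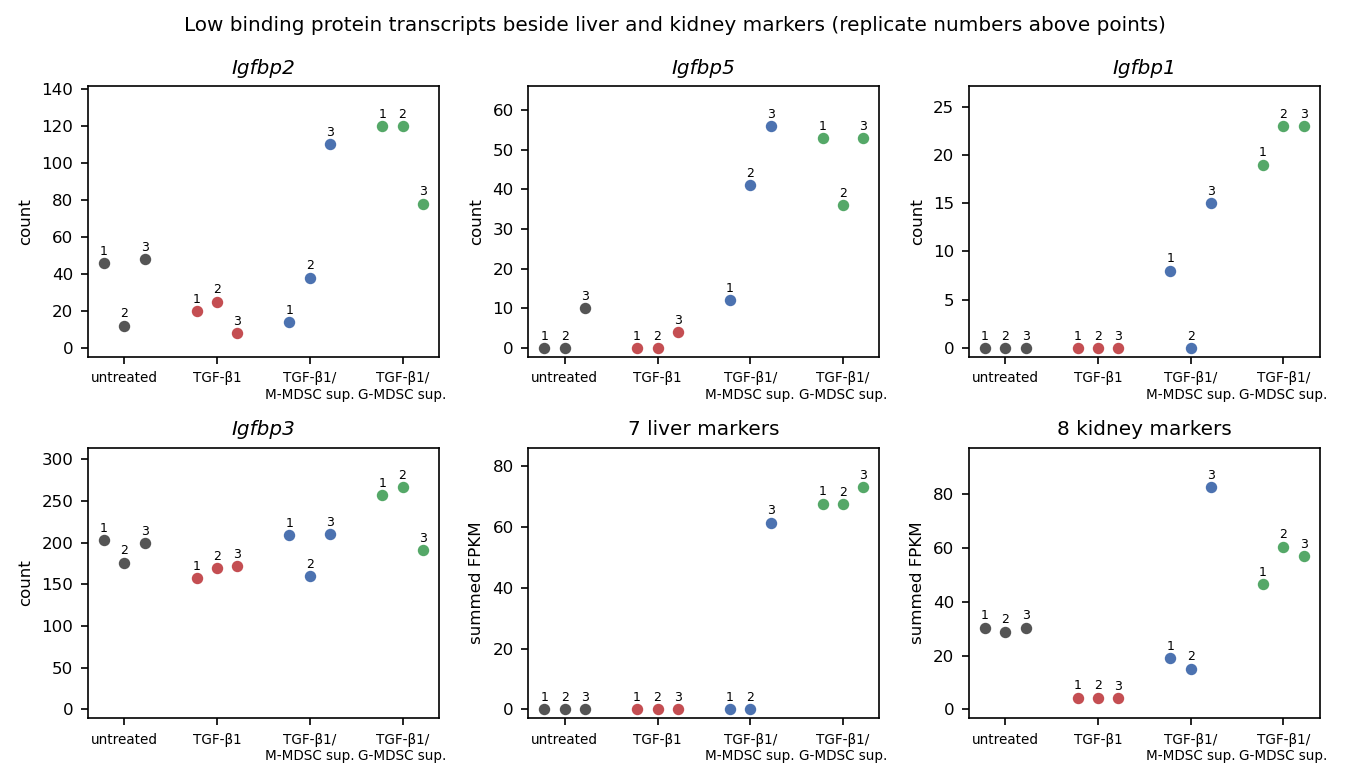
Counts of Igfbp2, Igfbp5, Igfbp1 and Igfbp3 in each of the 12 libraries (upper row and lower left) beside the summed FPKM of 7 liver markers and 8 kidney markers, Aqp1 included (y axes from 0, replicate numbers above the points). Igfbp5 and Igfbp1 are at or near 0 without supernatant, and replicate 3 is the highest TGF-β1/M-MDSC supernatant library for Igfbp2, Igfbp5, Igfbp1 and both marker sums.

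The same libraries carried liver and kidney markers. Among the M-MDSC supernatant libraries, replicate 3 had the most Igfbp2 and Igfbp5 counts and also the highest liver (FPKM 61.3) and kidney marker sums, and replicate 1, with liver markers at FPKM 0.076, had the fewest. The order of the other 2 libraries was not the same for every measure, since kidney markers without Aqp1 summed to FPKM 15.7 in replicate 1 and 12.3 in replicate 2. Among the G-MDSC supernatant libraries the order differed. Replicate 3 had the highest liver sum (FPKM 72.9) and the fewest Igfbp2 counts (78). Replicate 2 had the highest kidney sum (FPKM 57.2 without Aqp1) and the fewest Igfbp5 counts (36). Igfbp1, a liver-made binding protein outside the set of 10, showed the same order of groups. It had 0 counts in all 6 libraries without supernatant, 8, 0 and 15 with M-MDSC supernatant and 19, 23 and 23 with G-MDSC supernatant, at least 8.21-fold and at least 21.5-fold higher than with TGF-β1 when 3 counts over the TGF-β1 group are taken as the floor, and the former was at least 4.35-fold without M-MDSC supernatant replicate 3. Igfbp1 did not pass against TGF-β1 in the edgeR fit of all genes with a count (adjusted p = 0.249 with M-MDSC and 0.130 with G-MDSC supernatant). Against untreated MSCs, Igfbp1 passed in that fit with G-MDSC supernatant (edgeR adjusted p = 0.0356, where 4457 of 28622 genes passed). With M-MDSC supernatant it did not (0.0702). M-MDSC supernatant replicate 2 had 41 Igfbp5 counts with liver markers at FPKM 0.176. The part of these markers in the Igfbp2, Igfbp5 and Igfbp1 counts was not tested. Igfbp2 and Igfbp5 lie side by side on chromosome 1 (GRCm38, Igfbp2 at 72824503 to 72852474 on the plus strand and Igfbp5 at 72857932 to 72874884 on the minus strand) with 5.457 kb and no annotated gene between them. Igfbp1 and Igfbp3 are neighbours in the same way on chromosome 11, 3.539 kb apart.

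Other genes of the IGF pathway were read from 6 lists. The lists were chosen with earlier results of these data known, so their counts are descriptions and not tests of the lists. All 5 tested genes of the binding protein proteases and their inhibitors passed with TGF-β1 against untreated, 3 higher and 2 lower, where 34% of all genes tested were called, and 5 more were below the filter. Adam12, a metalloprotease that cleaves IGFBP3 and IGFBP5, was at FPKM 2.66, 2.87 and 2.63 in untreated MSCs and at 21.7, 21.4 and 19.5 with TGF-β1, a log2 fold change of 3.00 ± 0.0717 (edgeR adjusted p = 7.24e-10). Stc2, a stanniocalcin that inhibits PAPPA, rose by 0.58 and Htra1, a secreted serine protease, by 0.21, while Stc1 (-0.65) and the metalloprotease Adam9 (-0.64) fell (edgeR adjusted p at most 0.0335). Without untreated replicate 1 or TGF-β1 replicate 1, 3 of these 5 passed.

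Pappa itself was below the filter at FPKM 0.146, 0.082 and 0.129 in untreated MSCs and 1.07, 0.860 and 0.848 with TGF-β1. The groups stood far apart, and in the edgeR fit without the filter its log2 fold change was 3.02 ± 0.212 (adjusted p = 1.58e-06, where 14.6% of genes passed). With supernatant it was at FPKM 0.592 to 0.666 (M-MDSC) and 0.478 to 0.686 (G-MDSC), below all TGF-β1 libraries in both, with log2 fold changes against TGF-β1 of -0.56 and -0.72 that did not pass (adjusted p = 0.269 and 0.103), the former -0.51 (0.537) without M-MDSC supernatant replicate 3.

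Of 5 tested genes of the growth hormone axis, which drives Igf1 transcription in liver, 2 were lower with TGF-β1 and 0 higher, where 17.9% of all genes were called lower. Stat5a, a transcription factor activated by the growth hormone receptor, was at FPKM 1.57 to 1.75 in untreated MSCs and 0.393 to 0.561 with TGF-β1 (log2 fold change -1.80 ± 0.167, edgeR adjusted p = 1.10e-05), and Stat5b fell by 0.30. Stat5a was at FPKM 0.441 to 0.644 with M-MDSC supernatant, overlapping TGF-β1 alone, and at 0.634 to 0.758 with G-MDSC supernatant, where all 3 libraries lay above those of TGF-β1. The latter log2 fold change of 0.59 ± 0.164 did not pass (edgeR adjusted p = 0.0699). All 9 TGF-β1-treated libraries were below FPKM 1, so Stat5a passed the filter only through the untreated group. Its fall is therefore in part set by the filter. Without Stat5a, Stat5b was the only tested gene of the axis called lower with TGF-β1. Of the genes that reached FPKM 1 in some treated library, 17% were called lower. Ghr, the receptor itself, was not called with TGF-β1.

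Of 9 tested receptor adaptors, 2 were higher and 2 lower with TGF-β1, a share near the 34% of all genes. The 2 main substrates of the IGF1 receptor were called in opposite directions, although the fall of Irs1 is in part set by the filter. Irs1 was at FPKM 1.465 to 1.499 in untreated MSCs and at 0.723, 0.282 and 0.742 with TGF-β1 (log2 fold change -1.29 ± 0.328, edgeR adjusted p = 0.0108), and it too passed the filter only through the untreated group. Irs2 was at FPKM 4.70 to 5.32 and 5.71 to 6.37 (0.34 ± 0.0617, adjusted p = 0.00148), and was higher again with G-MDSC supernatant, at 7.37 to 7.79 (0.28 ± 0.0616 against TGF-β1, edgeR adjusted p = 0.0218). The inhibitory adaptor Grb14 fell by 0.80 on the log2 scale with TGF-β1 and the exchange factor Sos1 rose by 0.19. Without Irs1, Grb14 was the only adaptor called lower with TGF-β1. Of the genes that reached FPKM 1 in some treated library, 17% were called lower. Grb10, an adaptor that restrains IGF1 receptor signalling, was lower with G-MDSC supernatant than with TGF-β1 (-0.38 ± 0.0847, edgeR adjusted p = 0.0251). Irs2 and Grb10 were the 2 of 9 adaptors called with G-MDSC supernatant against TGF-β1, where 5.56% of all genes were called. With M-MDSC supernatant neither passed, at 0.12 for Irs2 and -0.18 for Grb10 (edgeR adjusted p = 0.351 and 0.315), and the difference between the supernatants did not pass either (adjusted p = 0.724 and 0.765).

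Of 18 tested genes of the PI3K, AKT and FOXO branch, 3 were higher with TGF-β1 (Rheb, Tsc1 and Foxo1) and 3 lower (Pik3r1, Akt2 and Mtor), again near the 34% of all genes. Pik3r1, the regulatory subunit of PI3K, moved most, from FPKM 2.40 to 2.60 in untreated MSCs to 0.735 to 1.10 with TGF-β1 (log2 fold change -1.38 ± 0.169, edgeR adjusted p = 9.13e-05). The other 5 moved by at most 0.34 on the log2 scale. Foxo1, a transcription factor that AKT inactivates, was at FPKM 2.15 to 2.41 in untreated MSCs, 2.48 to 2.71 with TGF-β1, 1.96 to 2.24 with M-MDSC supernatant and 2.08 to 2.22 with G-MDSC supernatant. It rose by 0.26 with TGF-β1 and fell by 0.32 with either supernatant against TGF-β1 (edgeR adjusted p = 0.0163, 0.0308 and 0.0289). It was the 1 gene of the 18 called with each supernatant, a share near the 4.78% and 5.56% of all genes, and all libraries of both supernatant groups lay below those of TGF-β1. Without M-MDSC supernatant replicate 3, Foxo1 lost its call in that group (-0.26, adjusted p = 0.116), and Tsc1, Mtor and Foxo3 lost theirs against untreated (0.30, -0.19 and -0.26, adjusted p = 0.0547, 0.10 and 0.0830), as did the adaptors Grb10 (-0.26, 0.0800) and Ptpn11 (0.18, 0.0588). Ghr, not called in the M-MDSC group with all libraries, was then called there against untreated (-0.18, edgeR adjusted p = 0.0434). In the G-MDSC group Ghr was called against untreated with all libraries (-0.19 ± 0.0538, edgeR adjusted p = 0.0209).

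The list of other ligands, receptors and carriers had 3 tested genes, of which Kazald1, an IGFBP-related secreted protein, was called with TGF-β1 (34% of all genes) and with M-MDSC supernatant against TGF-β1 (4.78%). It was at FPKM 7.82, 9.16 and 8.06 in untreated MSCs, 4.67, 4.75 and 5.07 with TGF-β1, 4.03, 3.51 and 3.80 with M-MDSC supernatant and 4.07, 4.31 and 4.36 with G-MDSC supernatant. Both differences passed in the full set of libraries (-0.73 ± 0.0849 for TGF-β1 against untreated, edgeR adjusted p = 6.02e-05, and -0.37 ± 0.0851 for M-MDSC supernatant against TGF-β1, adjusted p = 0.0308), and the latter did not without M-MDSC supernatant replicate 3 (-0.38, adjusted p = 0.0981). Of the Igf2 messenger-binding proteins and imprinted partners, 2 genes were tested, which did not pass with TGF-β1 in edgeR, and DESeq2 called 1 of them, where it called 36.4% of all genes.

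**Figure D5:**
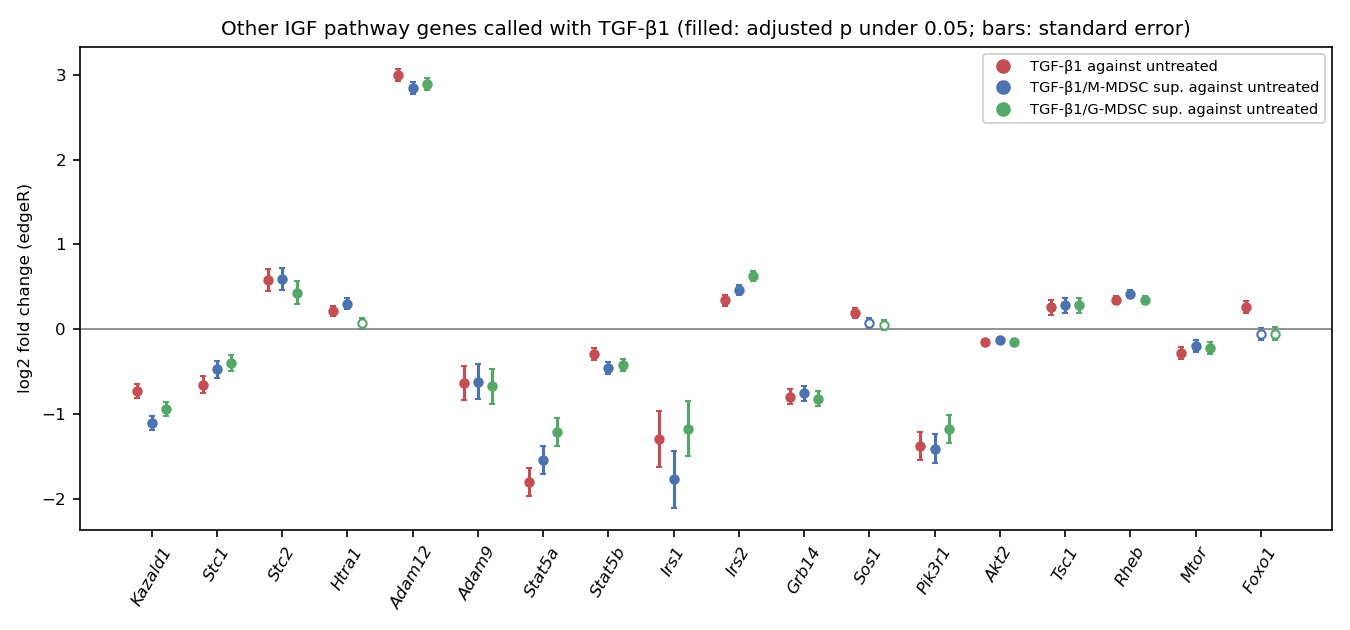
log2 fold change (edgeR, y axis) of the 18 listed pathway genes that passed with TGF-β1 against untreated, shown against untreated for TGF-β1 and both supernatant groups, with bars for the standard error and filled points for an adjusted p under 0.05. Adam12 lies near 3 in all 3 groups, Stat5a, Irs1 and Pik3r1 lie below -1, and Foxo1 passes with TGF-β1 alone.

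The genes most like 3 members across the 12 libraries were ranked by Pearson r of log2(FPKM + 1), taking the members with the widest range of group means. For Igfbp6 they were Timp2 (r = 0.998), Rab32 (0.996), Wnt4 (0.996), Itga3 (0.995) and Dio3 (0.994). Timp2, an inhibitor of matrix metalloproteases, went from FPKM 212 ± 2.91 in untreated MSCs to 104 ± 1.39 with TGF-β1, and Itga3, an integrin subunit, from 119 ± 2.20 to 30.9 ± 1.51. For Igf1 they were Sdc2 (0.981), Gatd3a, Apeh, Anxa3 and Anxa1 (0.972), of which Anxa1 went from FPKM 142 ± 7.88 to 75.5 ± 4.59. For Igfbp4 the likeness was lower, from 0.939 for B9d1 through Nenf, Psat1 and Elp2 to 0.883 for Tmem223. The 12 points share 3 untreated and 9 TGF-β1-treated libraries, and the values are given as a description.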

How the data were processed

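Libraries of poly(A) RNA from mouse MSCs, 3 per group, were made with strand marking by dUTP. The authors trimmed reads with fastp and cutadapt 1.9, aligned them to GRCm38 with HISAT2 2.0.4 and assembled transcripts with StringTie 1.3.4d (versions from the submitters' processing notes). The deposited table of 55401 genes holds raw counts and the FPKM the authors calculated per library, with a count of 0 written as FPKM 0.0001, which was set to 0 here. The counting tool and strand setting are not given in the sources used here, so reads of overlapping genes on opposite strands may be shared. Low counts pile up at multiples of 4 (44.3% of those from 1 to 12).

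Groups were taken from the labels. The members and gene lists were chosen with earlier results of these data known, and the 10 members were all reported by the rule. The 12016 genes that reached FPKM 1 in 3 or more libraries were tested on counts with edgeR 4.0.16 (R 4.3.3, two-sided quasi-likelihood F test, TMM factors 0.978 to 1.03, all 12 libraries in 1 fit of 4 groups), with Benjamini-Hochberg adjustment over all genes tested and an adjusted p under 0.05 for a call. The rule of the study asked for a 2-fold change up or down (below 0.5) and p under 0.05 without adjustment. Pathway genes are named where they passed, with Pappa and Igfbp1 named below the filter, and genes like a member are the 5 with the highest r for the 3 members of widest range. Naming Pappa and Igfbp1 was decided after their values were seen.

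The edgeR step was tested on simulated data. Alternatives were DESeq2 1.42.0 and its size factors, limma 3.58.1 on log2(FPKM + 1) or log2(FPKM + 0.1), no filter, the compared groups only, a replicate block, counts divided by 4, the rule of the study and leaving out each library. Added after seeing the data were no filter with TGF-β1/M-MDSC supernatant replicate 3 left out, shares without that library, and counts without genes that passed the filter through the untreated group alone. Shares were compared by exact permutation over libraries, and promoters came from RefSeq (GRCm38.p6). Depth was 73977669 to 84565450 counts per library, and the 95% intervals given for low members cover counting error only.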

Additional observations from a re-analysis of the deposited data

How the results depend on the processing

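Of 540 recomputed log2 fold changes of members, 501 kept their direction and side of the threshold, 16 lost a call, 9 gained one and 14 changed sign. Under the rule of the study 1, 2 and 3 members were called against untreated, in place of 3 for TGF-β1 alone and 4 and 5 for the M-MDSC and G-MDSC supernatant groups. DESeq2 called 1 with G-MDSC supernatant against TGF-β1, and the fit of the compared groups called 1 with M-MDSC supernatant. Leaving out single libraries gave 3 (without G-MDSC supernatant replicate 1) to 6 (without its replicate 3) calls for G-MDSC supernatant against untreated. Every change of sign was of a value that had not passed. Igf1r with G-MDSC supernatant against TGF-β1 ran from -0.12 to 0.00016 when single libraries were left out, the latter without G-MDSC supernatant replicate 2. Igf2r between the supernatants was 0.076 without G-MDSC supernatant replicate 3, 0.022 without M-MDSC supernatant replicate 2 and 0.0018 without its replicate 3, from a lowest value of -0.063. Igfbp4 with M-MDSC supernatant against TGF-β1 was -0.0091 and -0.035 without TGF-β1 replicates 1 and 2 and -0.19 without M-MDSC supernatant replicate 3, up to 0.48. Igfbp6 in that comparison was 0.00999 and 0.0101 in limma with pseudocounts 1 and 0.1, 0.0010 in the fit of the compared groups, 0.035 without TGF-β1 replicate 3 and 0.014 without M-MDSC supernatant replicate 2, down to -0.049. Igfbp7 was 0.026 with TGF-β1 against untreated without untreated replicate 3 (range from -0.091), and -0.034 between the supernatants without G-MDSC supernatant replicate 3 (range up to 0.065). In the fit with no filter, Igfbp2 with M-MDSC supernatant against untreated was 0.71 with all libraries and -0.29 without M-MDSC supernatant replicate 3 (adjusted p = 0.583 and 0.923), a setting chosen after seeing the data. The cause of these changes was not tested.

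Replicate numbers did not pair the samples, since the residuals of libraries with the same number correlated at -0.0038 on average over 18 pairs, against 0.0020 over 36 other pairs, and 2 of 12 libraries were closest to their own number. With a replicate block Igfbp4 also passed with TGF-β1 against untreated (log2 fold change -0.75, edgeR adjusted p = 0.0441), which made 4 members, and no other call of a member changed. Over all genes, the count between the supernatants was 15 with edgeR (12 higher and 3 lower with M-MDSC), 121 with DESeq2, 39 and 13 with limma at pseudocounts 1 and 0.1, 41 with the compared groups only, 8 with the block, and 47 without M-MDSC supernatant replicate 3 (11 higher and 36 lower). Leaving out single libraries gave 9 to 47. With M-MDSC supernatant against TGF-β1 it was 574 with edgeR and 351 with the compared groups only. Of the calls with TGF-β1 against untreated, 47.3% were higher in edgeR and 35.1% in limma. Of 540 counts in the pathway lists, 466 stayed within 1.5 times the first value and 74 did not. Igf2, Igfbp2 and Igfbp5 had at most 120 counts in any library.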
